A study of Caenorhabditis elegans with 2 samples.

Results

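The genes of cytoplasmic translation initiation and elongation factors were examined for binding by DPL-1 in whole young adult Caenorhabditis elegans. They were chosen by symbol, as the protein-coding genes whose names begin with eif-, eef- or ife-, plus ifg-1. This gave 37 of 19985 protein-coding genes in the Ensembl 115 annotation of WBcel235. The study had 1 group of 2 biological replicates of strain YL390, mixed-sex young adults with the unc119(ed3)III allele and the vrIs48 transgene. In the transgene the pie-1 promoter drives a fusion of DPL-1 with GFP and FLAG that ends in the 3′ UTR of dpl-1, and unc-119 (+) is carried along. Chromatin immunoprecipitation and sequencing (ChIP-seq) recorded where the protein sat, with GFP-tagged dpl-1 given as the target in the description and dpl-1 in the antibody field. The pie-1 promoter is known for germline expression, and whole worms were used, so the tissue in which a gene was bound is not known. Every sample carried the transgene, and worms without it were not analysed here.

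DPL-1 is the worm DP protein, which pairs with an E2F-type factor and works within the DREAM complex, a repressor best known at genes of the cell cycle. Initiation factors bring the messenger RNA, the initiator tRNA and the small ribosomal subunit together at a start codon. Elongation factors then deliver each aminoacyl-tRNA and move the ribosome along the message. In worms many such genes are needed in the germline, where large amounts of protein are made for oocytes.

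Genes counted as bound had the summit of a peak from the authors' optimal list between 1000 bp upstream and 500 bp downstream of an annotated transcript start. That list was filtered by the irreproducible discovery rate (IDR), which scores whether a peak keeps its rank between separate peak calls. It had 1546 peaks with signal values of at least 23.7. Signal is the authors' own value per peak against a control, and rank 1 is the highest signal. The list consisted of the 1546 strongest peaks of the pooled list of 30000, so a place in it does not show that a peak was found in each replicate. Read depth is unknown, and no counting error could be given for a peak.

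DPL-1 was bound at 20 of the 37 factor genes (54.1%), against 1842 of 19985 protein-coding genes (9.22%). Among genes with any pooled peak summit in a promoter window the shares were 20 of 32 factor genes and 18.3% of all 10063 such genes. Of all protein-coding genes 50.4% had such a summit. The 773 strongest peaks bound 9 of the 37 (24.3%), against 5.12% of all genes. The bound factor genes were not among the strongest targets as a group. Their strongest peaks had a median rank of 951 (quartiles 368 and 1295) and a median signal of 35.3, against a median rank of 686 (quartiles 336 and 1087) and a median signal of 45.9 over all 1842 bound genes. No test was made of these differences, because there was a single group and the genes were chosen with earlier results known.

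The groups of factors differed in how many genes were bound and how strongly. All but 1 of the 6 elongation factor genes were bound, each by 1 of the 773 strongest peaks. The 3 genes of eIF1, eIF1A and eIF6 were all bound, each by a weaker peak. Of the 11 eIF3 genes, 8 were bound, 2 of them by the 773 strongest peaks. Of the 10 genes with an eif-2 symbol 2 were bound, and of the 7 genes of the eIF4 group (the eIF4E genes, ifg-1 and eif-4A3) 2 were bound. These last shares were 20% and 28.6%, against 9.22% of all genes, and each rests on 2 genes.

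**Figure D1:**
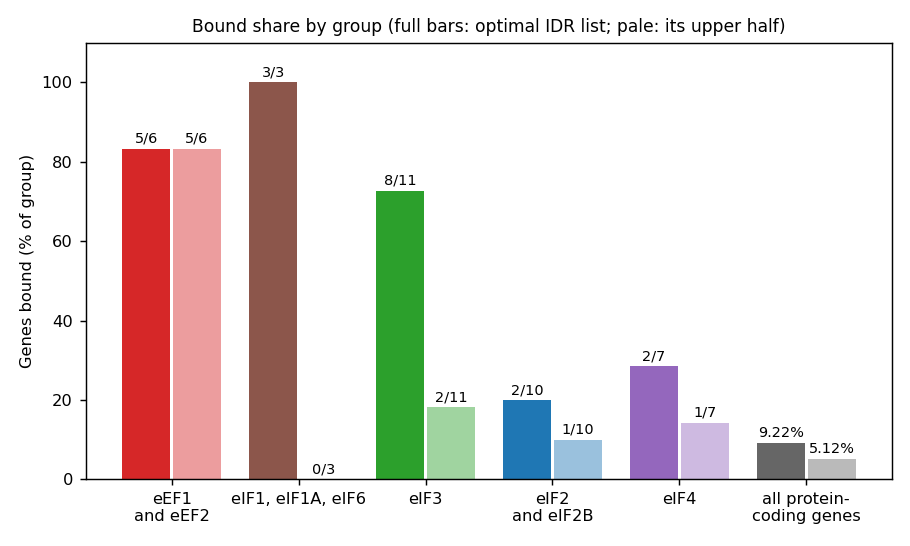
Percentage of genes bound by DPL-1 in each group of translation factors and among all protein-coding genes. Full bars use the optimal IDR list and pale bars its 773 strongest peaks; labels give bound genes over genes in the group, and the elongation factors have 5/6 in both while all genes have 9.22% and 5.12%.

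For 9 of the bound genes the motif match nearest to the summit, up to 100 bp away, is shown with its flanks, because E2F and DREAM proteins are known to bind such sequences. Capitals mark an E2F-type match, TTNNCGC with each N a C or a G, on either strand. All are the plus strand of ce11, 5′ to 3′, taken from the RefSeq WBcel235 sequence, and the ife-3 stretch lies just outside its peak interval.
eef-1B.1, chrIII:7973426-7973455: ggcgcccaagtTTCGCGCtttcatttctcc
eef-1G, chrV:10965610-10965639: aaacctgattcTTGGCGCcgaaatgcggta
eif-2A, chrII:10416656-10416685: ctggatacggtGCGCGAAattctgcatttc
eif-3.D, chrIII:8971814-8971843: gtacacgaaacGCGCCAAcattcgccactt
ife-3, chrV:8192-8221: tggaaagaaagGCGCGAAtcctgaaattca

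At the other genes shown no E2F-type match lay within 100 bp of the summit. Capitals mark the nearest match of the CHR type, TTNGAA with N a C or a T, on either strand. The CHR element is known as a binding sequence of the DREAM subunit LIN-54. At the stronger ife-3 peak a CHR-type match lay nearer to the summit (-37 bp) than the E2F-type match shown above (-51 bp).
eef-1A.1, chrIII:6972122-6972151: accgtacaccatTTCAAAcactctcggcgg
eef-1B.2, chrIV:15037114-15037143: ttcgcttcaaatTTTGAActtccctccatt
eif-3.B, chrII:14795127-14795156: aaattatctctaTTTGAAattccgcgcaaa
eif-1, chrII:4993835-4993864: acaatataaatcTTCAAAattctacctttt

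The bound elongation factor genes all had peaks among the 773 strongest. The peak of eef-2, the GTPase that moves the ribosome along the message, had the highest signal of all 37 genes (190.4, rank 48, chrI:9163402-9163616) with its summit at -11 bp from the start, where negative values are upstream. It had a signal of 45.8 (rank 85) in replicate 1 and 151 (rank 43) in replicate 2. The peak was therefore strong in both replicates. The gene of the eEF1B gamma subunit, eef-1G, had a peak of 117 (rank 161, chrV:10965609-10965754) at -26 bp, with 39.5 (rank 134) in replicate 1 and 77.9 (rank 196) in replicate 2. The genes of the eEF1B exchange factor, which reloads eEF1A with GTP, were eef-1B.2 (71.1, rank 397, chrIV:15037036-15037325, at -150 bp) and eef-1B.1 (60.5, rank 485, chrIII:7973266-7973555, at -25 bp). In replicate 1 eef-1B.2 had 22.8 (rank 395) and eef-1B.1 had 18.7 (rank 538), and in replicate 2 they had 52.2 (rank 362) and 45.6 (rank 429). These are similar places in both lists. The eef-1B.1 summit lay within an annotated non-coding RNA gene, F54H12.9, while the other summits of bound elongation factor genes were intergenic.

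The paralogs of eEF1A, the protein that carries aminoacyl-tRNA to the ribosome, differed. On chromosome III eef-1A.1 had a peak of 88.2 (rank 281, chrIII:6972053-6972187) with its summit at -411 bp, and it had 38.7 (rank 138) in replicate 1 and 48.2 (rank 400) in replicate 2. On X eef-1A.2 was not bound. Its strongest pooled peak had a signal of 7.98 (rank 9757), and the summit lay in its coding exon at 110 bp downstream of the start. Near-identical copies could split reads. None of the 106 stretches of 30 bases under the eef-1A.1 peak occurred elsewhere in the genome, while 21 of 261 (8.05%) did under the eef-1A.2 peak. No such stretch recurred under any of the 21 optimal IDR peaks of the factor genes.

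Of the 5 peaks of elongation factor genes, 4 were shared with another gene. Over all bound genes, each taken with each of its peaks, this share was 61.2%. Over all such pairs of a gene and its peak, shared or not, the summit lay upstream of starts on both strands in 53.5%. The eef-1A.1 peak was also in the promoter window of rfc-4, which encodes a subunit of the clamp loader, and the rfc-4 start was nearer (-130 bp against -411 bp). The eef-1G peak was shared with ctf-4, a replisome adaptor (-154 bp), and the eef-2 peak with clsp-1, the worm claspin (-254 bp). In these pairs the starts ran in opposite directions away from the summit. The eef-1B.1 peak was shared in the same way with aco-2, the mitochondrial aconitase (-306 bp). The eef-1B.2 peak was in no other window, and its gene began 294 bp after the end of fcd-2, a gene of the Fanconi repair pathway on the same strand. A peak between divergent starts cannot be assigned to 1 gene.

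**Figure D2:**
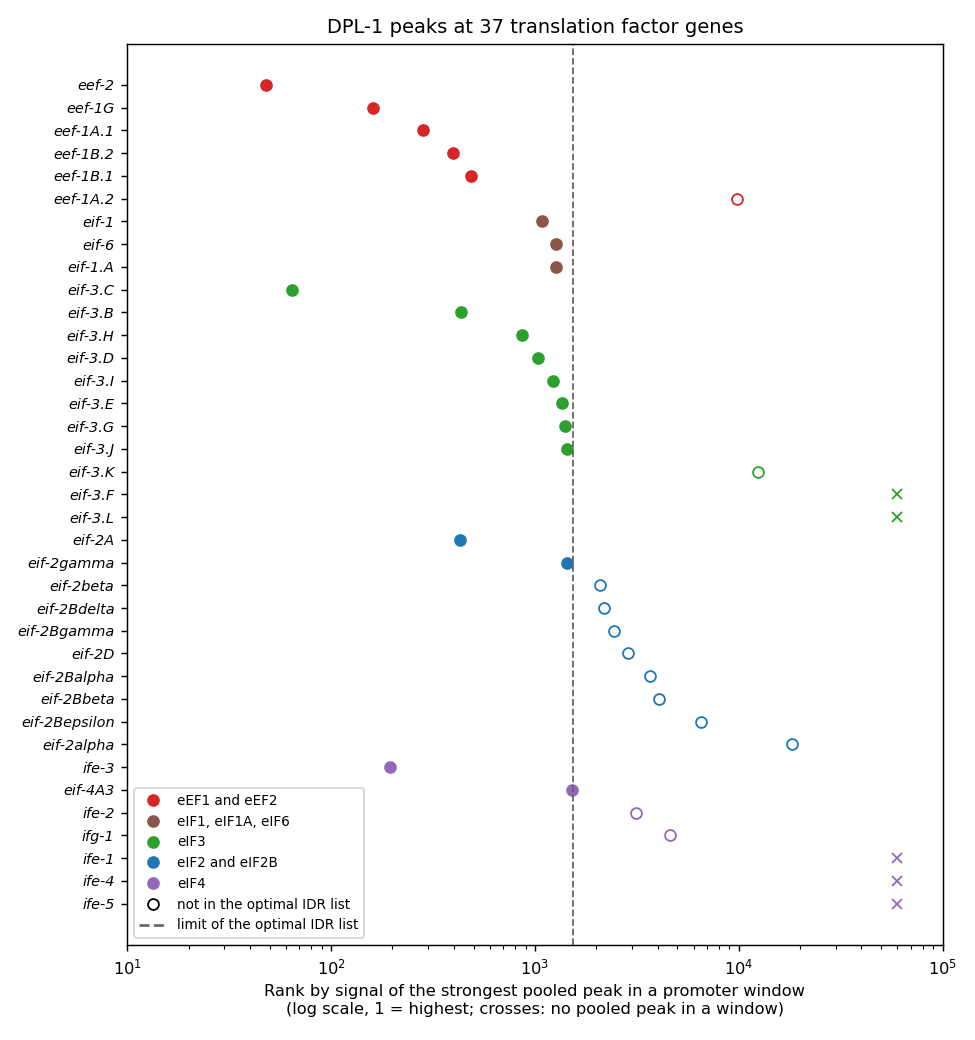
Rank by signal (log scale) of the strongest pooled peak in a promoter window of each of the 37 factor genes, coloured by group. Filled points left of the dashed line belong to the 1546 peaks of the optimal IDR list, and crosses mark 5 genes with no pooled peak in a window; the bound elongation factor genes lie between ranks 48 and 485.

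The genes of eIF1, eIF1A and eIF6 were bound by peaks from the weaker end of the optimal list. At eif-1 and eif-6 the replicates differed widely in rank. The eif-1 gene, whose protein guards start codon selection, had a peak of 31.5 (rank 1089, chrII:4993802-4994091) at -367 bp, with 23.1 (rank 388) in replicate 1 and 9.58 (rank 3212) in replicate 2. Replicate 1 was thus the higher by rank. The vps-24 gene, of the ESCRT-III membrane complex, had the nearest start to this summit (-51 bp), and pigb-1 also had it in its window (-870 bp). The eif-6 gene, whose protein keeps the ribosomal subunits apart, had a peak of 28.1 (rank 1268, chrI:12968467-12968756) at -334 bp, with 4.37 (rank 10909) in replicate 1 and 20.3 (rank 1153) in replicate 2. Here replicate 2 was the higher. The proteasome gene pbs-2 shared this peak from the other strand at -332 bp. The peak of eif-1.A, the gene of eIF1A, had a signal of 28.1 (rank 1272, chrIV:4810407-4810696) at -382 bp, with 10.6 (rank 1357) in replicate 1 and 16.8 (rank 1442) in replicate 2.

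The eIF3 complex, the scaffold on the small ribosomal subunit that receives the other initiation factors, was bound at 8 of its 11 genes with an eif-3 symbol, though at 5 by the strongest peaks of replicate 1 alone and 6 by those of replicate 2 alone. The strongest was eif-3.C, a core subunit, with a signal of 169.6 (rank 64, chrI:9979809-9979989) at -242 bp. It had 44.4 (rank 93) in replicate 1 and 125 (rank 69) in replicate 2, and no other gene had this summit in its window. The core subunit gene eif-3.B followed at 66.2 (rank 436, chrII:14795108-14795228) at -247 bp, with 18.9 (rank 527) in replicate 1 and 48.7 (rank 397) in replicate 2. Both peaks stood high in each replicate. The other 6 bound genes had signals from 25.1 to 37.9, with ranks from 863 to 1439.

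Among those weaker eIF3 peaks, eif-3.H (37.9, rank 863) ranked 503 in replicate 1 and 1773 in replicate 2, and eif-3.I (28.9, rank 1220) ranked 1172 and 1614. By contrast eif-3.E (26.4, rank 1364) ranked 2386 in replicate 1 and 1027 in replicate 2, and eif-3.G (25.7, rank 1408) ranked 4363 and 1450. The peak of eif-3.D, a subunit implicated in cap binding in human cells, had 32.8 (rank 1039) and ranked 1249 and 1206. Neither replicate was therefore the higher throughout. The peak of eif-3.J (25.1, rank 1439), a loosely attached subunit, had no summit within 100 bp in replicate 1 and ranked 1126 in replicate 2. It lay at -927 bp, in a non-coding exon part of slc-25A46, and was the farthest from its gene among the strongest peaks of bound factor genes. The starts of C41D11.3 (-116 bp) and R08D7.4 (-97 bp) were nearer than those of eif-3.H (-254 bp) and eif-3.D (-217 bp).

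The other 3 eIF3 genes were not bound. The pooled list had no summit in a window of eif-3.F or eif-3.L, and the peak of eif-3.K ranked 12377 (signal 7.18). Further subunits of the complex carry other names and were not bound either. The gene of the largest subunit, egl-45, had its strongest peak at rank 2538 (signal 16), and cif-1, the eIF3 subunit M, at rank 18741 (signal 5.83).

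Among the genes of eIF2, which carries the initiator tRNA, and of its exchange factor eIF2B, 1 of 3 and 0 of 5 were bound, beside the 9.22% of all genes. The bound gene was eif-2gamma, of the GTP-binding subunit, with a signal of 25.1 (rank 1445, chrI:2313013-2313302) at -113 bp. It ranked 1926 in replicate 1 and had no summit within 100 bp in replicate 2, where its strongest peak in a window ranked 2127. Thus neither replicate alone placed it among its 1546 strongest peaks. The peak of eif-2beta ranked 2088 (signal 18.6) and lay in an intron of the gene, and that of eif-2alpha, the subunit phosphorylated under stress, ranked 18263 (signal 5.91).

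Each of the 5 eIF2B genes had a pooled peak in a window and none was bound, where 18.3% of all genes with such a peak were bound. The peak of eif-2Bdelta ranked 2194 (signal 17.8), eif-2Bgamma 2450 (16.4), eif-2Balpha 3664 (12.6), eif-2Bbeta 4050 (12) and eif-2Bepsilon 6559 (9.5). All 5 were therefore weaker than the limit of the optimal list. The median best rank over all genes with a pooled peak in a window was 8862, so all 5 ranked above it. The eif-2Bgamma summit lay at -928 bp in an intron of C15F1.5, and the eif-2Bepsilon summit in a non-coding exon part of piga-1. The closest gene inside the limit was eif-4A3 at rank 1527 (signal 24), and the closest outside it was eif-2beta. Under the eif-2Bgamma peak 56 of 261 stretches of 30 bases (21.5%) occurred elsewhere in the genome.

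The remaining genes with an eif-2 symbol encode single proteins that are not eIF2 subunits. The peak of eif-2A, a factor linked to alternative initiation in mammals, had a signal of 66.7 (rank 429, chrII:10416515-10416804) at -140 bp. It had 27.1 (rank 292) in replicate 1 and 44 (rank 446) in replicate 2, and no other gene had this summit in its window. The peak of eif-2D, which acts in initiation and ribosome recycling, was not on the optimal list (signal 14.6, rank 2862).

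Of the 5 genes of the cap-binding eIF4E proteins 1 was bound (20%), against 9.22% of all genes. This was ife-3, which is essential and active in the germline, with a peak of 108 (rank 194, chrV:8232-8332) at -429 bp. It had 38.6 (rank 140) in replicate 1 and 69.1 (rank 239) in replicate 2. A second peak at -938 bp (32.8, rank 1037, chrV:8621-8910) ranked 637 in replicate 1 and had no summit within 100 bp in replicate 2. The start of B0348.10, an upstream gene on the same strand, was 27 bp from that second summit, so the weaker peak was nearer to another gene. The stronger summit was also in the window of B0348.10, at 482 bp downstream of its start. For ife-1, an eIF4E of germ granules and sperm, and for ife-4 and ife-5 the pooled list had no summit in a window. The peak of ife-2, on X, ranked 3131 (signal 13.8). Thus 2 of the 5 eIF4E genes had a pooled summit in a window, against 50.4% of all genes.

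The scaffold gene ifg-1, which encodes eIF4G and bridges the cap-binding protein and the ribosome, was not bound. Its strongest pooled peak had a signal of 11.2 (rank 4619), and in the replicates its best peaks in a window ranked 2566 and 4546. The gene eif-4A3 encodes a helicase of the exon junction complex and is an initiation factor by name only. Its peak was the weakest of the bound genes (24, rank 1527, chrI:636771-637060) and lay at -571 bp in a non-coding exon part of vps-20, whose start was nearer (112 bp). It ranked 1688 in replicate 1 and 1710 in replicate 2.

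**Figure D3:**
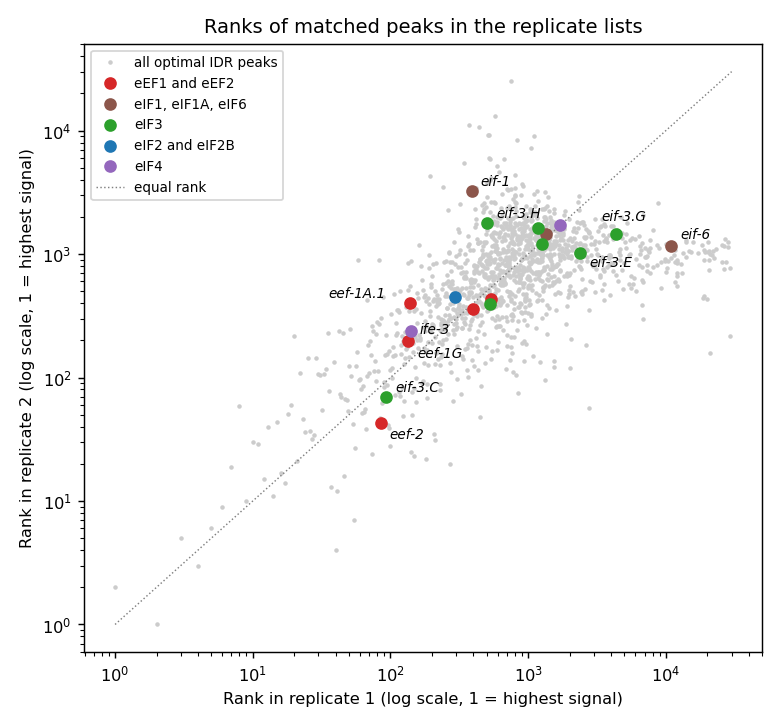
Rank of matched peaks in the replicate 1 and replicate 2 lists (log scales), with factor gene peaks coloured by group and all matched optimal IDR peaks in grey. The peaks of eef-2 and eif-3.C lie near the top of both lists, while eif-1 ranked 388 and 3212 and eif-6 10909 and 1153.

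Agreement between the replicates was close to that of all peaks. Of the 21 optimal IDR peaks of the factor genes, 18 (85.7%) had a summit within 100 bp in both replicate lists, against 88.9% of all optimal IDR peaks. Among the 1546 strongest of both lists were 11 (52.4%), against 58.5% of all. Of the 18 matched peaks, 9 ranked higher in replicate 1 and 9 in replicate 2. A peak matched in both replicates bound 18 of the 37 genes, against 8.46% of all genes.

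Each replicate alone gave a similar count of bound factor genes but not the same genes. The 1546 strongest peaks of replicate 1 bound 16 of the 37 genes (8.89% of all genes), and those of replicate 2 bound 16 (8.82% of all genes). The lists shared 11 of these genes, against 6.41% of all genes bound by both. Replicate 1 alone added eif-2D and eif-2beta to the genes bound in the optimal list, and replicate 2 alone added eif-2Bgamma. The shared genes were all 5 bound elongation factor genes, eif-1.A, eif-2A, eif-3.B, eif-3.C, eif-3.D and ife-3.

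Every bound factor gene had the summit of its strongest peak upstream of its own start. The median distance of the strongest peak was -244 bp (quartiles -371 and -148 bp), against -222 bp (quartiles -390 and -125 bp) over all bound genes, of which 94.1% had an upstream summit. Of the 21 peaks 18 were intergenic, and none lay within 250 bp of a tRNA gene. Other protein-coding genes shared 14 of the 21 peaks (66.7%). Over the 1877 pairs of any bound gene and its peak this share was 61.2%. The summit lay upstream of starts on both strands in 11 of the 21 (52.4%), against 53.5% of those pairs. Both shares were close to those over all pairs. Of the 14 shared peaks, 7 were nearest to the factor gene and 7 to its neighbour. By nearest start alone 14 of the 37 genes were bound, against 6.39% of all genes, and eef-1A.1, eif-1, eif-3.D, eif-3.H, eif-4A3 and eif-6 were the genes lost.

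**Figure D4:**
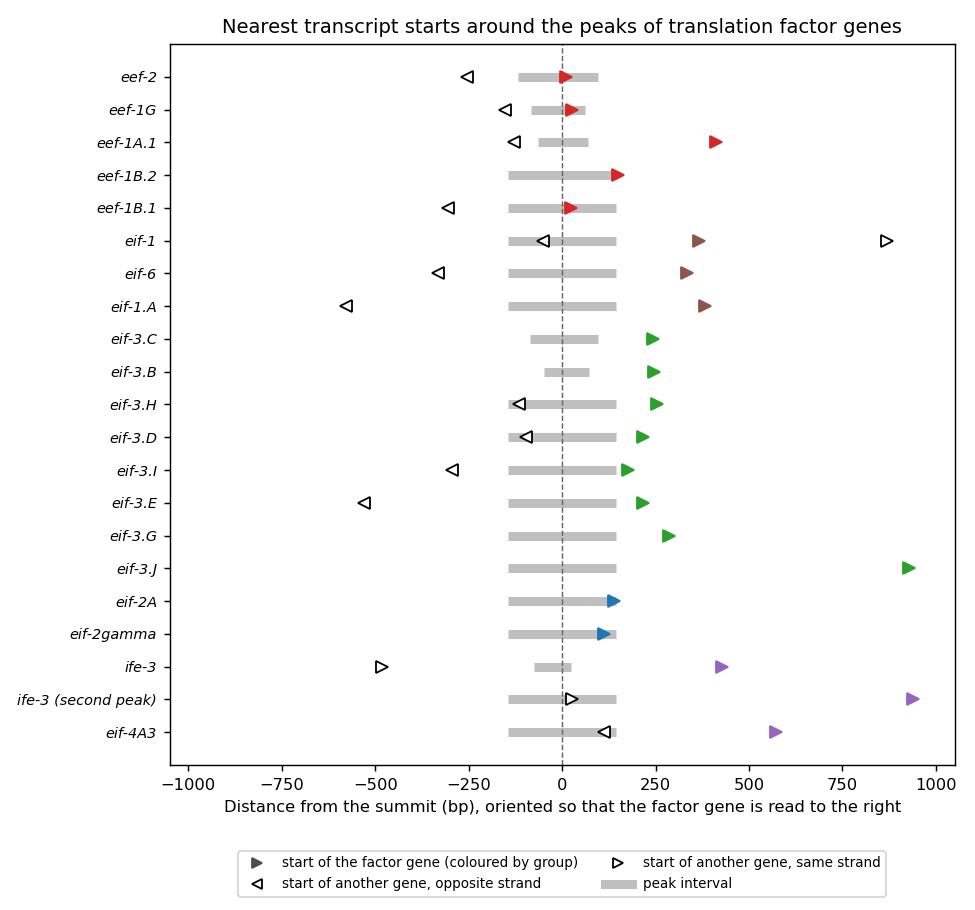
Transcript starts around each of the 21 optimal IDR peaks of factor genes, as distance in bp from the summit at 0. Coloured triangles are starts of the factor genes, open triangles starts of other protein-coding genes on either strand, and grey bars the peak intervals; starts of opposite-strand neighbours lie left of the summit at eef-2, eef-1G, eef-1A.1 and eef-1B.1.

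Some unbound factor genes lay behind other genes in the same direction. Worm genes in such runs are often transcribed together from a promoter ahead of the first gene, and the annotation used here does not mark these operons. Of the 37 factor genes, 13 began within 1000 bp after the end of a same-strand gene, against 6017 (30.1%) of all protein-coding genes. Of these 13, 7 were unbound, against 5583 of the 6017. These 7 were 41.2% of the unbound factor genes, and 30.8% of all unbound genes lay in such a place. In 3 of these 7 the first gene of the run was bound, against 15.4% of such unbound genes overall. These first genes were sod-1 for eif-2Bgamma (signal 41, rank 796), phb-1 for eif-2alpha (signal 24.3, rank 1508) and nud-1 for ife-1 (signal 38.8, rank 839). The gap to the gene just ahead was 251 bp at eif-2Bgamma, 132 bp at eif-2alpha and 808 bp at ife-1. At eif-2Bgamma the run ahead held 3 genes. Of the 20 bound factor genes 6 also lay in such a place (30%), against 23.6% of all bound genes. In 2 of these 6, eif-2gamma and ife-3, the first gene of the run was bound too, against 130 of 434 such bound genes overall. At ife-3 this first gene, B0348.10, was counted through the same peak (rank 194), so the calls of these genes are not separate. Whether any of these runs is transcribed as 1 unit was not tested.

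Bound genes were spread over the autosomes. On chromosome I 9 of 12 factor genes were bound (15.1% of all genes there), on II 4 of 11 (9.83%), on III 3 of 5 (16.1%), on IV 2 of 2 (9.63%) and on V 2 of 4 (5.67%). On X none of 3 was bound, namely eef-1A.2, ife-2 and ife-4, where 1.14% of all genes were bound.

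The E2F-type sequence lay within 100 bp of 7 of the 21 summits (33.3%), against 36.7% of all optimal IDR summits, promoter or not. Among 10069 promoter summits of the pooled list more than 1000 bp from any optimal IDR peak it was at 8.62%. Its reversed sequence CGCNNTT, a control of the same base composition, was at 1 of the 21 (4.76%). This control was at 13.8% of all optimal IDR summits and at 4.44% of those distant promoter summits, so it differed between them too. The E2F-type matches were at eef-1B.1, eef-1G, eef-2, eif-2A, eif-2gamma, eif-3.D and the stronger ife-3 peak. Elongation factor peaks held 3 of them in 5 peaks, and eIF3 peaks 1 in 8.

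Distances of the nearest E2F-type match from the summit varied. At eif-2A it was centred 10 bp from the summit, at eef-2 -12 bp, at eef-1B.1 29 bp, at eif-3.D 33 bp, at ife-3 -51 bp, at eef-1G -69 bp and at eif-2gamma -83 bp, counted along the plus strand. The strong peak of eif-3.C had no match of either type within 100 bp. The 7 peaks with the sequence had a median rank of 429, against 1154 for the 14 without, and over all optimal IDR peaks these medians were 561 and 873.

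The CHR-type sequence was at 13 of the 21 summits (61.9%), against 63.9% of all optimal IDR summits and 54.5% of the distant promoter summits. Its reversed control AAGNTT was at 4 of the 21 (19%), against 30.3% of all optimal IDR summits and 34.7% of the distant promoter summits. Both types were found at 4 peaks, with no base in common, and neither at 5, against 25.6% of all optimal IDR peaks with neither. A match is a description of the sequence and does not show that a factor binds it.

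Genes of translation that carry other names, mitochondrial elongation factors among them, were bound at 16 of 35 (45.7%), beside the 9.22% of all genes. The list was written from knowledge of the process. A further 5 names matched no annotated gene symbol, and whether they are other names of genes counted here was not checked. The strongest were gcn-1, a partner of the eIF2 kinase GCN-2 (signal 124, rank 145, at -267 bp), and ifet-1, a translational repressor that binds eIF4E (123, rank 149, at -529 bp), whose peak was nearer to the ribosomal protein gene rps-1. They were followed by abcf-2, an ABC-type ATPase linked to ribosome biogenesis in yeast (103, rank 214, at -886 bp), and by the kinase gene gcn-2 itself (88.3, rank 280, at -220 bp). Next were drr-2, related to eIF4H (78.5, rank 332, at -160 bp), and iff-2, an eIF5A gene (68.6, rank 410, at -82 bp). The gcn-1 peak was in no other window. The abcf-2 peak was shared with ant-1.1 and T27E9.2, and the gcn-2 peak with Y81G3A.1. The drr-2 peak was shared with set-16 and the iff-2 peak with F54C9.14. By nearest start 10 of the 35 genes were bound (28.6%), against 6.39% of all genes.

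By function, 3 of 9 other initiation genes were bound (inf-1, drr-2 and ifet-1), and both eIF5A genes. Of 8 elongation factor and ABC-type genes 5 were bound (abcf-1, abcf-2 and the mitochondrial factor genes tufm-1, tufm-2 and tsfm-1). So were 3 of 6 termination and rescue genes (erfa-3, skih-2 and nonu-1) and 3 of 10 regulators (gcn-1, gcn-2 and daf-15). Over all protein-coding genes the share was 9.22%, and each of these counts is small. The eIF4A gene inf-1, whose helicase works with ifg-1 and the eIF4E proteins, had a peak of 39.4 (rank 822, at -370 bp). The peak of iff-1, the germline eIF5A gene (49.6, rank 615, at -275 bp), was shared with cdk-1, the mitotic kinase gene, and the abcf-1 peak with scc-3, a cohesin gene. The poly(A)-binding protein gene pab-1 was just outside the optimal list by its pooled rank (23.3, rank 1582). Its ranks in the replicates were lower, 10109 in replicate 1 and 3185 in replicate 2.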

How the data were processed

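The ChIP-seq peak lists of 2 replicates in 1 group were analysed on ce11. According to description files the authors deposited, every replicate had its peaks called against control reads, another call pooled the replicates, and the optimal IDR list came out of comparing such calls. Which aligner and peak caller made them is not given in the sources used here. The signal value of a peak is the one the authors deposited, taken against the control on a scale that differs between lists, so values were compared across lists only by rank. The lists on the older build ce10 were not used here.

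Using Python 3.11.15, summits were assigned to windows around 29796 transcript starts (Ensembl 115, WBcel235, the same sequence as ce11; no peak passed a chromosome end). The highest peak whose summit lay within 100 bp counted as the match in a replicate. The motif search covered both strands up to 100 bp from a summit. Assignment and motif search were tested on simulated data. The labels say that the replicates are biological and give no more. The factor genes, the list of other translation genes, the naming rule and the alternatives were chosen with earlier results of these data known. Every bound factor gene was named, and up to 6 bound genes of the other list were given with values; inf-1, iff-1, abcf-1 and pab-1 were added after their values were seen. Figures were drawn with matplotlib 3.10.9.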

Additional observations from a re-analysis of the deposited data

How the results depend on the processing

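Of the 20 bound factor genes, 8 were bound under all 8 alternatives to the window, peak list or assignment, namely eef-1B.1, eef-1B.2, eef-1G, eef-2, eif-2A, eif-3.B, eif-3.C and ife-3, and 12 of the 17 unbound genes were unbound under all 8. The count of bound factor genes was 18 with windows reaching 500 bp upstream and 250 bp downstream (7.56% of all genes), 22 when they reached 2000 and 1000 bp (11.5%), 14 by nearest start (6.39%), 20 when any base of a peak counted (9.53%), and 16 without replicate 2 (8.89%) or without replicate 1 (8.82%). With the 773 strongest peaks it was 9 (5.12% of all genes), and by group 0 of 3 for eIF1, eIF1A and eIF6, 1 of 10 for eif-2 symbols, 2 of 11 for eIF3 and 1 of 7 for the eIF4 group. The eIF4 group also had 1 with the narrower window, by nearest start and without either replicate, and the group of eIF1, eIF1A and eIF6 had 1 by nearest start. Without replicate 2 the eIF3 genes had 5 bound, and without replicate 1 they had 6. With only peaks matched in both replicate lists, an alternative chosen after seeing the data, 1 of 10 genes with eif-2 symbols was bound and 18 of the 37 in all (8.46% of all genes). Other translation genes had 10 of 35 bound (28.6%) by nearest start and with the 773 strongest peaks, 16 without replicate 2 and 13 without replicate 1, beside the same shares of all genes. Bound factor genes with peaks in both replicates numbered 11 when only the 1546 strongest peaks of each list counted, 16 with summits within 50 bp and 20 within 250 bp. E2F-type matches were at 3 of the 21 peaks (14.3%, against 22% of all optimal IDR peaks) with 1 more T at the start of the sequence, and at 1 (4.76%, against 13.8%) for the reversed control. They were at 7 (33.3%, against 42.4%) within 250 bp and at 5 of 9 (55.6%, against 46.2%) among the 773 strongest peaks, so the order of the shares was not the same throughout. The cause of these shifts was not tested, beyond the fewer peaks or genes that each stricter setting keeps. No paired analysis was possible because there was 1 group. Peak lists without read counts limit precision, since no counting error can be given for any peak.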
